A study of Mus musculus with 6 samples.

Results

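The 26S proteasome is the protease that degrades ubiquitin-tagged proteins in the cytosol and nucleus. Its genes were examined in ID8, a tumour-forming cell line derived from the surface epithelium of the mouse ovary. Members were taken by name: protein-coding genes called Psma, Psmb, Psmc or Psmd plus a number, without Psmb8 and Psmb9, with 10 or more counts in at least 3 of the 6 libraries. Of 53465 genes in the table, 37 had such a name and 35 of those met the count minimum. The members comprised 15 genes of the core particle, 17 of the regulatory particle and 3, Psmd5, Psmd9 and Psmd10, that encode assembly factors of the regulatory particle and are not held in the finished complex. The label thus fits 32 of the 35 members strictly.

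RNA was sequenced from 3 libraries labelled KO and 3 labelled WT, with replicates numbered 4 to 6 in each group. The series text names a stable transfection with sgNat10, a guide against Nat10, or with sgNC, a control guide, and speaks of a knockdown where the labels say KO; KO was taken as sgNat10 and WT as sgNC. Both groups are ID8, and no other treatment is named. NAT10 is the enzyme that acetylates cytidines in RNA, and the study asked which transcripts change when it is depleted. Each guide stands for 1 line as far as the labels go, so guide and line cannot be told apart. The sources used here do not say whether a line was 1 clone or replicates were separate cultures. The p-values therefore measure only how far these libraries differ, which may be technical.

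Library totals ran from 2234305 to 3126208 counts in the KO-labelled group and from 1687466 to 2148715 counts in the WT group. Nat10 itself had 315, 133 and 445 counts in KO-labelled libraries and 168, 128 and 292 counts in WT libraries, with an edgeR log2 fold change of -0.07, so the labels are not borne out by its mRNA level. Whole-gene counts cannot show an edit within a transcript that is still made. Every direction below is therefore one of labels, KO-labelled over WT. The mesothelial and epithelial markers Krt19, Krt18, Msln, Wt1 and Upk3b were counted in all 6 libraries, but 3 of these 5 differed between the groups. Krt18 and Krt19 were lower in KO-labelled libraries, with log2 fold changes of -1.74 and -0.92 and edgeR adjusted p of 0.0195 and 0.0044. Msln was higher, with a log2 fold change of 1.05 and an edgeR adjusted p of 0.0145. The part of this marker shift in the members' values was not tested. Krt8, also counted in all 6, had 1, 74 and 251 counts in KO-labelled libraries and 413, 346 and 293 counts in WT libraries. Its log2 fold change was -2.42, with an edgeR adjusted p of 0.51. Epcam was at 0 in all 6 and Cdh1 at 0 in all 3 KO-labelled libraries and in WT replicate 6. Of the leukocyte markers, Cd3e was at 0 throughout, Ptprc and Adgre1 had 1 count each, in KO replicate 6, and Cd68 had 10 and 29 counts in WT replicates 4 and 5 and 0 elsewhere. Endothelial, adipocyte and erythroid markers had at most 2 counts in a library.

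In the proteasome, a barrel-shaped core particle holds the proteolytic sites, and a regulatory particle caps it. The core is built of outer alpha rings, whose subunits gate the entry channel, and inner beta rings, of which Psmb5, Psmb6 and Psmb7 carry the catalytic threonines. The base of the regulatory particle contains a ring of ATPases, Psmc1 to Psmc6, that unfold substrates. It also contains the non-ATPase subunits Psmd1, Psmd2 and Psmd4, which serve as scaffold and ubiquitin receptors. The lid, led by the deubiquitinase Psmd14, removes the ubiquitin chain. In mammalian cells these genes are known to be induced together by the transcription factor NRF1 (Nfe2l1) when proteasome activity is limiting.

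Most members stood somewhat lower in KO-labelled libraries, and no single member passed the edgeR test. Of the 35 members 30 had a log2 fold change below 0, against 51.0% of all 8200 genes tested and 50.2% of the 5214 within the members' range of mean level. The other 5 lay above 0, as did 49% of all genes, and the members' median was -0.36, against -0.02 for all genes. Without Psmb10, which met the count minimum mainly through the KO-labelled libraries, 30 of 34 lay below 0 with a median of -0.37. All 35 members passed the filter on low counts. With the quasi-likelihood test of edgeR and Benjamini-Hochberg adjustment over all genes, 0 of 35 were called at 0.05, where 0.402% of all genes were. At an unadjusted p under 0.05 there were 6 members, 5 lower and 1 higher, where 6.49% of all genes lay under it (3.79% lower, 2.7% higher). DESeq2 called 2 members, Psma6 and Psmd2, both lower, where it called 2.85% of all genes, and limma-voom called 0, where it called 0.524%. An absolute log2 fold change over 1 was found in 2 members, Psmd2 and Psmb10, and in 26.9% of all genes. Since the members were chosen with earlier results known, these counts carry no test of the set.

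**Figure D1:**
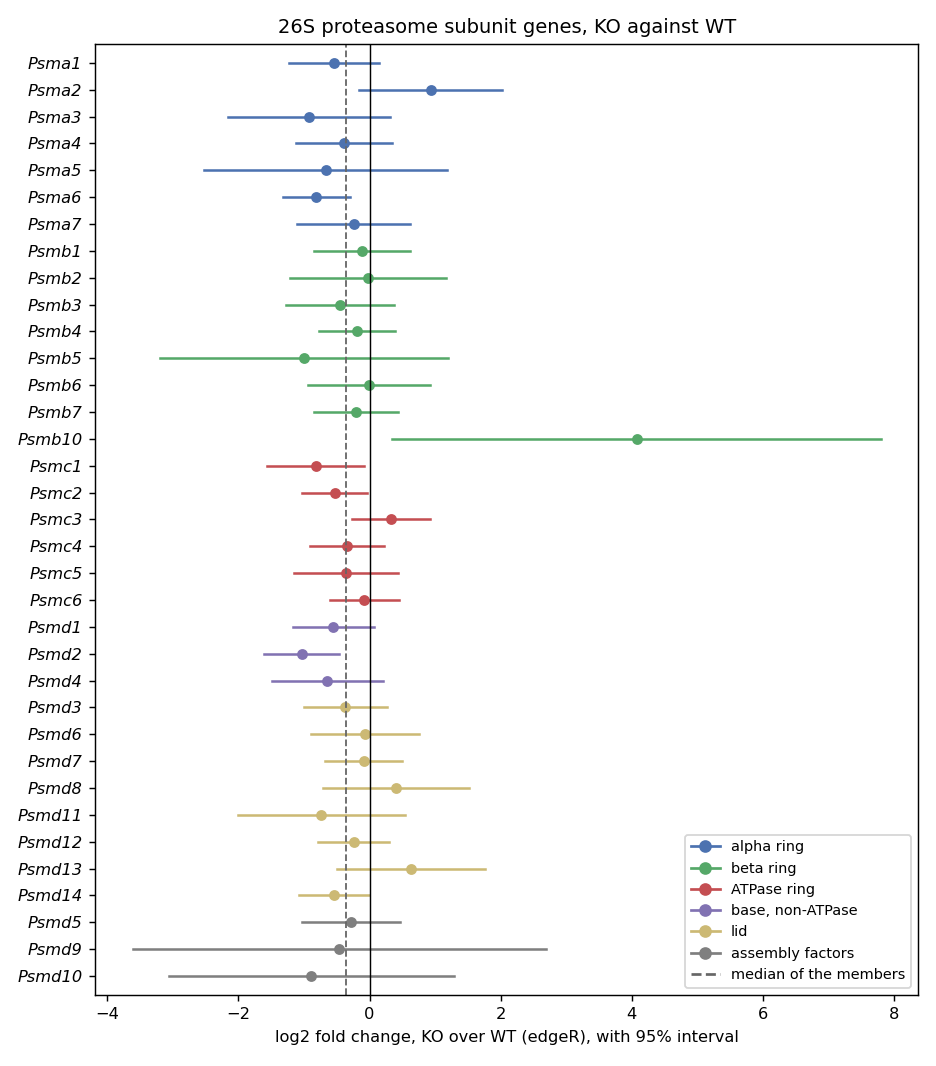
Log2 fold change (KO over WT, edgeR, x axis) of each of the 35 members (y axis), as points with 95% intervals, coloured by subcomplex; the solid line is 0 and the dashed line the members' median. Most points sit between -1 and 0, 5 lie above 0, and the interval of Psmb10 is the widest.

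The promoters of a few members show what lies before these genes. RefSeq windows from 250 bases before to 50 after a start site (GRCm38.p6) were matched for 29 of 35 members, 31 windows in all; Psmb1, Psmb2, Psmb7, Psmc3, Psmd3 and Psmd7 were unmatched. Shown are the member with the smallest p (Psmd2), the ATPase with the lowest estimate (Psmc1), and 2 catalytic subunits whose windows hold the letters TGACNNNGC, the core of the antioxidant response element that NRF1 and NRF2 bind. Capitals mark TGACNNNGC or CCAAT on either strand. The windows are chr16:20651402-20651701 (+) for Psmd2, chr12:100109952-100110251 (+) for Psmc1, chr14:54617946-54618245 (-) for Psmb5 and chr11:70525107-70525406 (+) for Psmb6.
Psmd2: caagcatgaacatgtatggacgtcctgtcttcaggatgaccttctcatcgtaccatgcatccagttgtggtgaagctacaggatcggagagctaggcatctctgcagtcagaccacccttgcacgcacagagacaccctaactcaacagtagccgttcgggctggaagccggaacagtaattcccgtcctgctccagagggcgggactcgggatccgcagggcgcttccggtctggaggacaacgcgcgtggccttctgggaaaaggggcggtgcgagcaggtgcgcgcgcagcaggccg
Psmc1: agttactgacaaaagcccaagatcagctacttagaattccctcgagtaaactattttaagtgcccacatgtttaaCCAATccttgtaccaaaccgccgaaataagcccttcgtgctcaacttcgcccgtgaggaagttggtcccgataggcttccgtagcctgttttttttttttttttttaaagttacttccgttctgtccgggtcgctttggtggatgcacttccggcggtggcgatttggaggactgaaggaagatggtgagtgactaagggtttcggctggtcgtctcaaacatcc
Psmb5: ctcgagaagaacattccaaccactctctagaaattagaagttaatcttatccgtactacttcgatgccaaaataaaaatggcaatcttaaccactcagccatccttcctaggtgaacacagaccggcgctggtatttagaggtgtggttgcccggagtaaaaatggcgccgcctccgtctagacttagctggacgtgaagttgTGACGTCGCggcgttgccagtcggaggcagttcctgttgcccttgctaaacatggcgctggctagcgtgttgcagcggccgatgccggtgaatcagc
Psmb6: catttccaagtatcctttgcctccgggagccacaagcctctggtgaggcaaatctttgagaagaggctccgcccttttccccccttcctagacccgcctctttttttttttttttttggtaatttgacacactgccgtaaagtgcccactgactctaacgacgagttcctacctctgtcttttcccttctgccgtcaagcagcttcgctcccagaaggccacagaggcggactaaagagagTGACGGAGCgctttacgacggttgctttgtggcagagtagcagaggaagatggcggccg

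In Psmb5 the 9 letters begin 47 bases before the start site (-47) and in Psmb6 9 bases before it (-9). Over all member windows, 5 of 31 (16.1%) held TGACNNNGC, those of Psmb5, Psmb6, Psmc6, Psmd9 and Psmd12, against 12.4% of 32851 promoters of the same length and 14.9% of those of tested genes. The form TGACTCAGC, a special case of the first, was in 0 of 31, against 0.454% of all promoters. CCAAT was in 11 of 31 (35.5%), against 37.4% of all, and no member window held both motifs. The member shares were near those of promoters at large. The log2 fold changes of Psmb5, Psmb6, Psmc6, Psmd9 and Psmd12 ran from -0.99 to -0.01, within the range of the other members.

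Summed over the 35 members, the level was 5794, 5937 and 5350 CPM (counts scaled to a common library size, after TMM) in KO-labelled replicates 4, 5 and 6, against 7008, 7167 and 7396 CPM in WT replicates 4, 5 and 6. The groups did not overlap, and the means were 5694 ± 306 and 7190 ± 195 CPM (SD, n = 3 each), 20.8% lower in KO-labelled libraries. As a share of all counts in a library the members took 0.584%, 0.621% and 0.552% in KO-labelled libraries and 0.683%, 0.668% and 0.706% in WT libraries. The exact 95% binomial intervals of these shares, which cover counting error only, ran from 0.543% to 0.631% over the KO-labelled libraries and from 0.657% to 0.719% over the WT libraries. The scaling bears on this difference, because the tested genes as a whole summed to 963094 ± 17889 CPM in KO-labelled libraries and 1038627 ± 24215 CPM in WT libraries on the same scale. With library totals in place of TMM the members' sum was 14.6% lower, the median log2 fold change of all genes moved to 0.09, and 25 of 35 members lay below 0, where 45.1% of all genes did. In bulk RNA, fewer cells of a kind and less RNA per cell cannot be told apart.

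Within groups the members spread about as much as other genes of their level. Their median within-group SD was 0.44 on the log2(CPM + 1) scale, against 0.97 for all tested genes and 0.48 for the 1507 within the middle of the members' range of levels. Psmc3 and Psma6 had the smallest, 0.07 each. Psmd10 and Psmb10 had the largest, 2.22 and 2.06. KO replicate 6 held the lowest value of 12 of the 35 members and KO replicate 4 that of 9, while WT replicate 6 held the highest value of 11 and WT replicate 5 that of 9.

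**Figure D2:**
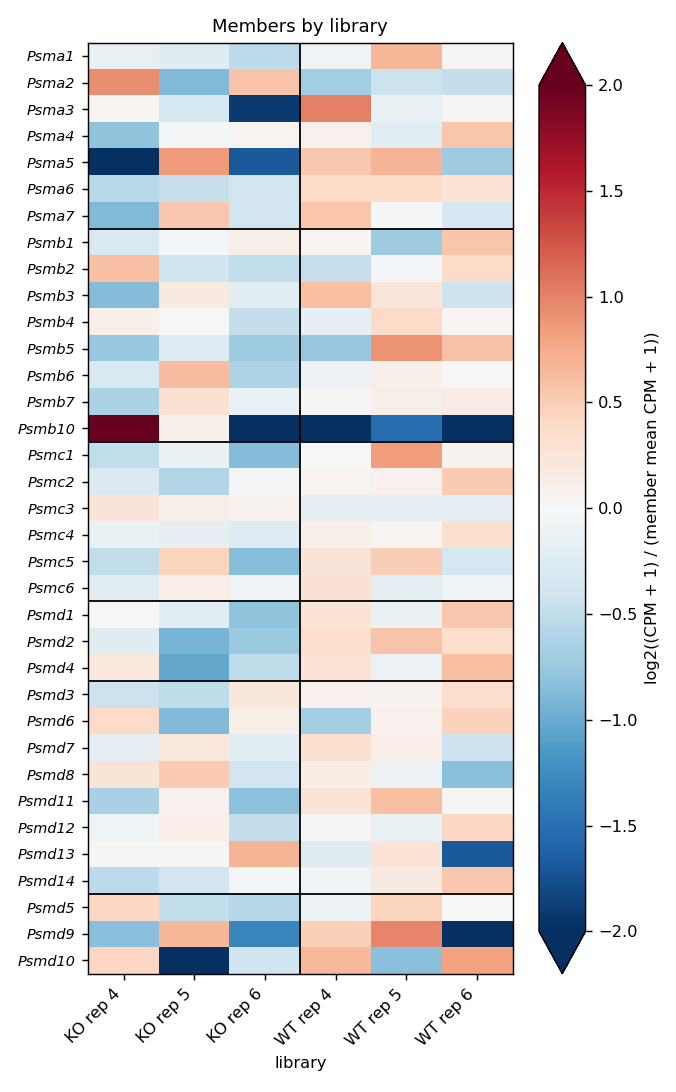
Level of each member (rows, grouped by subcomplex) in each of the 6 libraries (columns), as log2((CPM + 1) / (mean CPM of that member + 1)); red is above and blue below the member's mean, and values beyond the scale of -2 to 2 are drawn at its end. The KO-labelled columns are bluer for Psma6, Psmd2 and Psmc4 in all 3 libraries, and Psmb10, Psmd9 and Psmd10 vary most between libraries of 1 group.

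In the core particle, the alpha ring was lower in each KO-labelled library. Its 7 measured subunits summed to 818, 978 and 835 CPM in KO-labelled libraries and 1279, 1207 and 1118 CPM in WT libraries, with no overlap of the groups. With Psma6 left out the sums of the groups overlapped. Of these 7, 6 had an estimate below 0 and the median log2 fold change was -0.54. Psma6, an alpha-ring subunit, had 207, 221 and 233 CPM in KO-labelled libraries, against 398, 394 and 369 CPM in WT libraries. All 3 KO-labelled values lay well under all 3 WT values, and the libraries of each group were close together. The means of Psma6 were 221 ± 13.1 and 387 ± 15.6 CPM (SD, n = 3 each), a log2 fold change of -0.81 ± 0.24 (SE, 95% interval -1.32 to -0.30), with an adjusted p of 0.304 by edgeR, 0.0103 by DESeq2 and 0.273 by limma-voom. Psma6 (ENSMUSG00000021024) lies on chromosome 12 from 55384222 to 55418454 in mm10.

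Other alpha subunits varied more between libraries. Psma1 ran from 127 to 164 CPM in KO-labelled libraries and from 173 to 288 CPM in WT libraries, again without overlap (log2 fold change -0.54 ± 0.32 SE, edgeR adjusted p = 0.98). Psma3 had the lowest estimate of the ring, at -0.93 ± 0.58 (SE), with 81.1, 61.7 and 20.2 CPM in KO-labelled libraries and 159, 71.0 and 79.8 CPM in WT libraries. Its groups overlapped. Psma2 was the 1 alpha subunit with an estimate above 0. It had 167, 47.1 and 131 CPM in KO-labelled libraries and 53.5, 64.5 and 62.4 CPM in WT libraries, so 2 KO-labelled libraries stood above the WT range and replicate 5 below it. Its log2 fold change was 0.93 ± 0.51 (SE, edgeR adjusted p = 0.923). Psma8, which replaces Psma7 in the testis, had 0 counts in every library and so fell outside the count minimum. Over all 13549192 counts, a count of 0 allows up to 0.221 CPM.

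The beta ring showed less difference than the alpha ring, though that contrast was not tested. Its 8 members summed to 1044, 1223 and 911 CPM in KO-labelled libraries and 1101, 1186 and 1212 CPM in WT libraries, so the groups overlapped. The median log2 fold change was -0.16, or -0.19 without Psmb10, and no beta subunit had groups that did not overlap. Psmb5, which carries the chymotrypsin-like site, had 17.6, 25.3 and 18.3 CPM in KO-labelled libraries and 17.6, 58.0 and 46.3 CPM in WT libraries. WT replicate 4 stood at the level of the KO-labelled libraries. The log2 fold change of Psmb5 was -0.99 ± 1.03 (SE, 95% interval -3.19 to 1.20), and exons of other genes cover 12.1% of its exon bases. Psmb6, with the caspase-like site, had 84.3, 161 and 68.3 CPM in KO-labelled libraries and 97.3, 112 and 105 CPM in WT libraries. Its estimate was -0.01 ± 0.43 (SE), with an interval from -0.94 to 0.92 and a sign that turned with the scaling. Psmb7, with the trypsin-like site, had 149.8, 286 and 211 CPM in KO-labelled libraries and 237, 251 and 259.6 CPM in WT libraries. Its estimate was -0.21 ± 0.30 (SE), and exons of other genes cover 11.8% of its exon bases. For Psmb6 and Psmb7 the KO-labelled libraries spread around the narrow WT range.

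Psmb10 went the other way and rested on few libraries. It encodes the immunoproteasome form of the Psmb7 position, a subunit induced by interferon and common in leukocytes. It had 329, 73 and 18 counts in KO-labelled libraries and 0, 19 and 0 counts in WT libraries, or 128, 31.3 and 5.58 CPM against 0, 9.49 and 0 CPM. KO replicate 6 lay below WT replicate 5, so the groups overlapped. The fitted log2 fold change of 4.07 ± 1.74 (SE, edgeR adjusted p = 0.659, DESeq2 0.0748) became 2.52 without KO replicate 4 and 9.98 without WT replicate 5, where both remaining WT libraries are at 0 and the value is no bound. The rule takes genes by counts in 3 libraries and Psmb10 had 10 or more in 4, of which 3 were KO-labelled, so that it passed mainly through the group in which it is high. Psmd9 and Psmd10 met the minimum in 5 libraries each and all other members in 6. The leukocyte markers named above gave no count in KO replicates 4 and 5, where Psmb10 was highest. Cd68 had its 29 counts in WT replicate 5, the WT library with Psmb10, and its part in that value was not tested. The other immunoproteasome subunits were hardly counted. Psmb8 was at 0 in all 6 libraries, and Psmb9 had 26 counts in WT replicate 5 and 0 elsewhere. The thymus form, Psmb11, was at 0 in all 6.

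**Figure D3:**
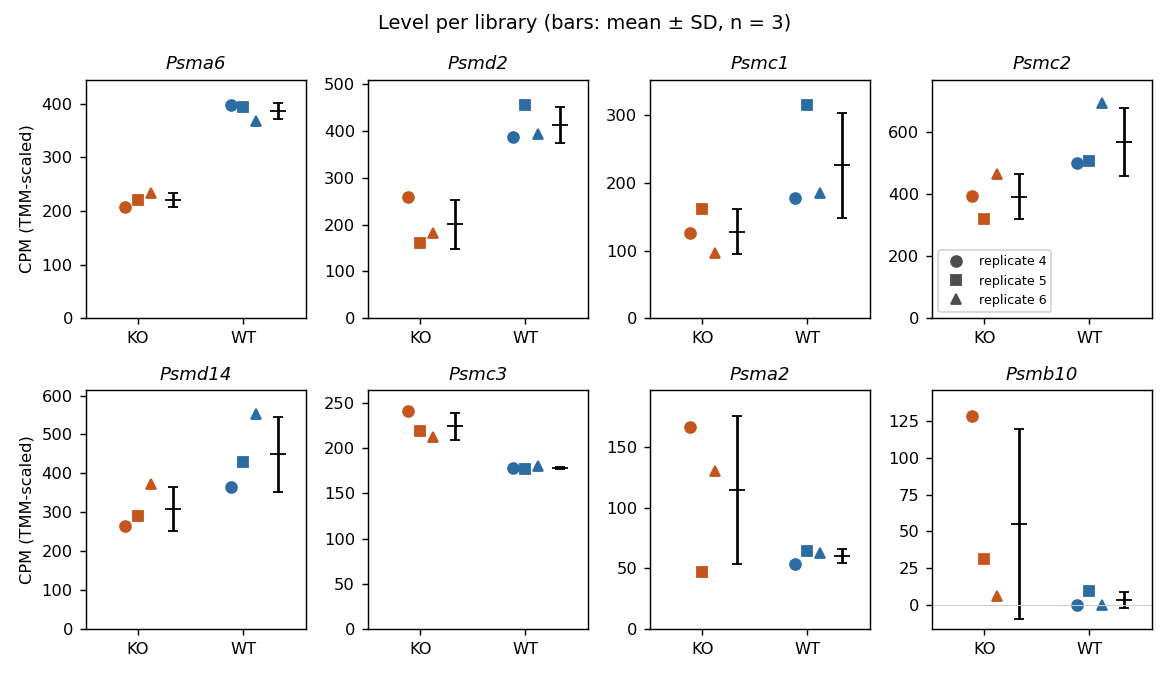
CPM per library (y axis, TMM-scaled) of 8 members in KO-labelled (left) and WT (right) libraries; symbols mark replicates 4 to 6, and the bars give mean ± SD, n = 3. Psma6, Psmd2, Psmc1 and Psmc2 lie lower in all KO-labelled libraries, Psmc3 higher, and Psma2, Psmd14 and Psmb10 overlap between groups.

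In the ATPase ring 5 of 6 members had an estimate below 0, with a median of -0.35. The ring summed to 1419, 1564 and 1413 CPM in KO-labelled libraries and 1772, 1836 and 1849 CPM in WT libraries, without overlap. With Psmc2 left out the sums of the groups overlapped. Psmc1 had 126, 162 and 96.2 CPM in KO-labelled libraries and 177, 315 and 186 CPM in WT libraries. The gap between the groups was narrow beside the spread inside WT. Its log2 fold change was -0.82 ± 0.35 (SE, 95% interval -1.57 to -0.08; edgeR unadjusted p = 0.0329, adjusted p = 0.65). Psmc2 had 393, 319 and 465 CPM in KO-labelled libraries and 499.8, 508 and 694 CPM in WT libraries, a log2 fold change of -0.53 ± 0.23 (SE, edgeR unadjusted p = 0.0385, adjusted p = 0.695). Psmc4 also had groups that did not overlap, from 207 to 224 CPM in KO-labelled libraries and from 255 to 308 CPM in WT libraries.

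Psmc3 was the exception in the ring. It had 241, 219 and 212 CPM in KO-labelled libraries and 178, 177 and 179.8 CPM in WT libraries, higher in all 3. The estimate was 0.33 ± 0.28 (SE, edgeR adjusted p = 0.99996), and exons of other genes cover 8.25% of its exon bases. In all, 6 members had groups that did not overlap with lower KO-labelled values, namely Psma1, Psma6, Psmc1, Psmc2, Psmc4 and Psmd2, and 1, Psmc3, with higher ones. Among all tested genes 7.93% were lower and 6.94% higher without overlap. With library totals in place of TMM the groups of Psmc2 overlapped and those of the other 5 lower members did not, where 6.34% of all genes were lower and 8.62% higher without overlap.

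The non-ATPase base subunits had a lower median, -0.64, than the ATPases or the lid, and all 3 lay below 0. They summed to 723, 482 and 452 CPM in KO-labelled libraries and 917, 857 and 1039.5 CPM in WT libraries. Psmd2, the scaffold subunit that binds ubiquitin-like domains of shuttle proteins, had 260.2, 160.1 and 183 CPM in KO-labelled libraries, against 387, 457 and 394 CPM in WT libraries. Every KO-labelled value lay below every WT value. The means were 201 ± 52.4 and 413 ± 38.3 CPM (SD, n = 3 each), and the log2 fold change of Psmd2 was -1.04 ± 0.27 (SE, 95% interval -1.60 to -0.47). It had the smallest p of the members, with an adjusted p of 0.167 by edgeR, 0.00348 by DESeq2 and 0.0976 by limma-voom. Psmd2 (ENSMUSG00000006998) lies on chromosome 16 from 20651652 to 20663414 in mm10. Psmd4, a ubiquitin receptor, and Psmd1, the other large scaffold, had estimates of -0.64 ± 0.39 and -0.55 ± 0.29 (SE), and both overlapped between groups. Exons of other genes cover 7.61% of the exon bases of Psmd1.

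The lid differed least among the parts of the regulatory particle by its median of -0.17, with 6 of 8 members below 0. It summed to 1469, 1524 and 1572 CPM in KO-labelled libraries and 1659.9, 1759.8 and 1909 CPM in WT libraries, and no lid gene taken alone had groups that did not overlap. Psmd14, the metalloprotease that cuts ubiquitin chains off substrates, had 263, 291 and 373 CPM in KO-labelled libraries and 364, 429 and 553 CPM in WT libraries, the highest KO-labelled value lying just above the lowest WT value. Its log2 fold change was -0.54 ± 0.25 (SE, edgeR unadjusted p = 0.0481, adjusted p = 0.751). Psmd11, a scaffold subunit of the lid, had the lowest estimate there, -0.74 ± 0.59 (SE), with 34.3, 58.2 and 30.4 CPM in KO-labelled libraries and 65.7, 83.4 and 55.5 CPM in WT libraries. Psmd13 had the highest, 0.63 ± 0.53 (SE), and exons of other genes cover 10.1% of its exon bases. It had 89.3, 89.1 and 141 CPM in KO-labelled libraries and 74.2, 106 and 26.6 CPM in WT libraries, and the low value of WT replicate 6 weighed on the estimate, which was 0.24 without that library.

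Core, ATPase and lid genes were compared by their medians and summed levels. The median log2 fold change was -0.24 for the 15 core genes (-0.32 without Psmb10), -0.35 for the 6 ATPases and -0.17 for the 8 lid genes, and the ranges of single genes overlapped widely, from -0.99 to 4.07 for the core, -0.82 to 0.33 for the ATPases and -0.74 to 0.63 for the lid. Scaled per kb of exon, the summed ATPase level was 0.663, 0.646 and 0.637 of the summed core level without Psmb10 in KO-labelled libraries and 0.609, 0.625 and 0.593 in WT libraries. That ratio was higher in each KO-labelled library, at 0.649 ± 0.013 against 0.609 ± 0.016 (SD, n = 3 each), but it rested on Psma6, the member with the highest level per kb. With Psma6 also left out of the core, in a comparison chosen after the values were seen, the ratio was 0.841, 0.791 and 0.843 in KO-labelled libraries and 0.859, 0.857 and 0.815 in WT libraries. The groups then overlapped and the KO-labelled mean was the lower one, at 0.825 ± 0.0296 against 0.844 ± 0.0252 (SD, n = 3 each). The ratio of lid to core was 0.644, 0.543 and 0.684 in KO-labelled libraries and 0.517, 0.506 and 0.591 in WT libraries, with overlap. No test was made of these sums, since they are scores over genes chosen with results known.

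**Figure D4:**
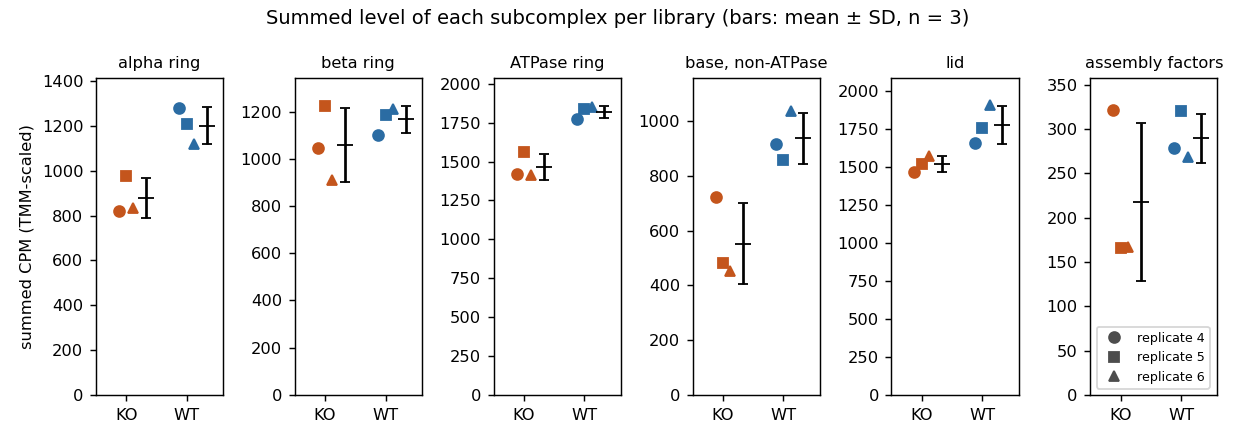
Summed CPM of the members of each subcomplex (y axes, TMM-scaled, each from 0) in KO-labelled (left) and WT (right) libraries; symbols mark replicates 4 to 6 and the bars give mean ± SD, n = 3. The groups do not overlap in the alpha ring, the ATPase ring, the non-ATPase base and the lid, and do overlap in the beta ring and the assembly factors. Each separation is lost when a single member is left out. The sums overlap without Psma6, Psmc2 and Psmd2 in the first 3, and without either Psmd7 or Psmd12 in the lid.

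The assembly factors Psmd5, Psmd9 and Psmd10, chaperones that bind ATPases before the base is complete, had estimates of -0.28, -0.46 and -0.89. None had groups that did not overlap. Psmd10, also known as gankyrin, had 66.3, 0.428 and 37.5 CPM in KO-labelled libraries and 78.4, 27.5 and 87.3 CPM in WT libraries. KO replicate 5 held a single count of it, and without that library its estimate was -0.31. Psmd9 was low and uneven, from 8.69 to 36.8 CPM in KO-labelled libraries and from 1.73 to 46.0 CPM in WT libraries, and other genes cover 25.5% of its exon bases.

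Per kb of exon the members differed in level by far more than the groups did. Psma6 had the highest level, 179 CPM per kb in KO-labelled and 313 CPM per kb in WT libraries, followed over all libraries by Psmb4, Psmc5, Psmd14 and Psmd12 at 152, 146, 134 and 132 CPM per kb. The median member stood at 56.0 CPM per kb, and Psmd11 and Psmd9 were lowest at 8.55 and 3.17. The ATPases ran from 77.2 to 146 CPM per kb, while the alpha ring ran from 20.2 to 246 and the lid from 8.55 to 134. These lengths join all annotated exons of a gene, so a gene with long exons that ID8 cells do not use is set too low. Of 4 pseudogenes named after members, 2 had counts, 5 in all.

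**Figure D5:**
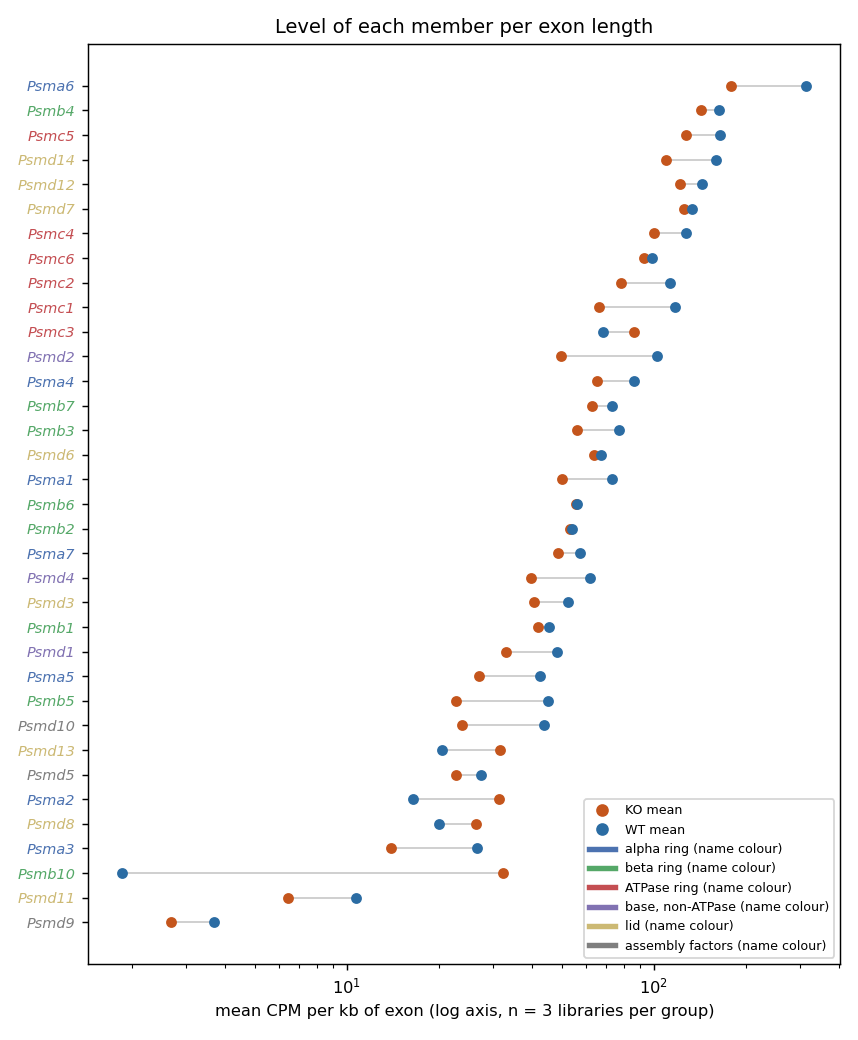
Mean CPM per kb of exon (x axis, log scale) of each member in KO-labelled and WT libraries (n = 3 each), in order of the level over all libraries, with names coloured by subcomplex. The KO mean lies left of the WT mean for most members and right of it for Psmc3, Psmd13, Psma2, Psmd8 and Psmb10.

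The genes that regulate, assemble and serve the proteasome did not pass the test either. Of 47 listed genes outside the members 42 were tested, and edgeR called 0, with 4 at an unadjusted p under 0.05, all lower, where 3.79% of all genes were lower at that p. DESeq2 called 2, where it called 2.85% of all genes. Nfe2l1, which encodes NRF1, had 145 ± 7.34 CPM in KO-labelled libraries and 144 ± 27.5 CPM in WT libraries (SD, n = 3 each; log2 fold change 0.01 ± 0.34 SE, 95% interval -0.70 to 0.73). Of 9 tested genes listed around NRF1 and NRF2, 6 had an estimate above 0, where 49% of all genes did. Their median was 0.53, with a median SE of 1.06, and the list mixes activators with inhibitors. The related factor Nfe2l2 (NRF2) had an estimate of -0.29 ± 0.26 (SE). The chaperone Pomp, which matures the core, was at 82.3 ± 21.2 and 78.4 ± 23.4 CPM in KO-labelled and WT libraries. The remaining subunits of the particle outside the naming rule were the ubiquitin receptor Adrm1, with an estimate of -0.14 ± 1.44, and the small lid protein Sem1, with -0.63 ± 0.43 (SE).

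Among the activators that dock on the core in place of the regulatory particle, Psme1 and Psme3 had estimates of 0.31 ± 0.47 and 0.17 ± 0.46, and Psme4 of -0.59 ± 0.46 (SE). Psme2, the partner of Psme1, had 71, 73 and 69 counts in KO-labelled libraries and 2, 67 and 0 counts in WT libraries. WT replicate 5 was thus the 1 WT library with counts of Psmb9 and Psmb10, and it held nearly all WT counts of Psme2. The estimate of Psme2 was 1.20 ± 1.86 (SE), and 5.35 without that library, a value that rests on WT libraries with 2 and 0 counts.

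The 4 related genes with an edgeR unadjusted p under 0.05 were all lower in KO-labelled libraries. Their groups did not overlap, which a p that small makes likely. Of all 42 related genes tested, these 4 were lower and 0 higher without overlap, where 7.93% of all genes were lower and 6.94% higher. Rad23b, a shuttle that carries ubiquitinated proteins to the proteasome, had 159, 435 and 384 CPM in KO-labelled libraries and 632, 575 and 815 CPM in WT libraries (log2 fold change -1.05 ± 0.31 SE, edgeR adjusted p = 0.329, DESeq2 0.0268). Vcp, the ATPase that extracts ubiquitinated proteins from membranes and complexes, had 355, 208 and 215 CPM in KO-labelled libraries and 505, 566 and 378 CPM in WT libraries (-0.90 ± 0.27 SE, edgeR adjusted p = 0.346, DESeq2 0.0302). Other genes cover 7.26% of its exon bases. Ecpas, a scaffold that holds core and regulatory particle together, averaged 202 ± 103 CPM in KO-labelled libraries and 402 ± 70.3 CPM in WT libraries (SD, n = 3 each; edgeR adjusted p = 0.436). Ufd1, a cofactor of Vcp, averaged 19.5 ± 14.9 and 72.3 ± 24.8 CPM in KO-labelled and WT libraries (edgeR adjusted p = 0.732).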

How the data were processed

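RNA was sequenced from 6 ID8 libraries. Per the labels' protocols, poly(A) RNA was taken from total RNA, fragmented and copied with random hexamers. The submitters' processing notes list HISAT2 2.0.5, featureCounts 1.5.0-p3, fastp and the build mm10. The sources used here give neither settings and strand mode nor annotation. As deposited by the authors, each value is a whole-number read count of an Ensembl gene, with no normalization. Symbols, coordinates and exon lengths come from GENCODE M21, matched for 53360 of 53465 genes. Because strand is not stated, reads of overlapping genes cannot be told apart.

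Low genes were removed with edgeR 4.0.16 filterByExpr (minimum count 10; R 4.3.3), leaving 8200. After TMM scaling KO was tested against WT with the robust quasi-likelihood fit, two-sided; p-values were adjusted over all 8200 genes by Benjamini-Hochberg, with calls at 0.05. SE is the log2 fold change over the root of F. DESeq2 1.42.0 and limma-voom 3.58.1 were alternatives, with the others named in the closing section. A count of 0 was read as up to 3 counts. Members, lists and named genes were chosen with earlier results of these data known. Genes with a value in every library were the catalytic subunits, members with an unadjusted p under 0.05 and the extremes of each subcomplex. Related genes were named at an unadjusted p under 0.05 or as regulators, activators and further subunits listed by name. Other members named singly (by level, motif or lack of overlap) and Nfe2l2 fall outside that rule: their values were known when they were named. The fit was also run on simulated counts, and the share of changes recovered there is not given here. Replicate numbers did not pair the libraries.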

Additional observations from a re-analysis of the deposited data

How the results depend on the processing

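The number of members called was 0 in edgeR with DESeq2 size factors, library totals, no filter, the members' own count minimum, the replicate block and a threshold of 0.1. It was also 0 in edgeR with a filter of 1 CPM in 3 libraries and a minimum total count. That filter was laxer than the main one and kept 8590 genes, against 8200. In limma-voom and with each library left out (0 to 0) the number was 0 as well, and DESeq2 called 2. For the related genes the count was 0, 2 in DESeq2, 1 without a filter (Rad23b), and 0 to 0 with a library left out. Same-numbered libraries did not deviate together (correlations of -0.02, -0.003 and -0.01), and with the replicate block edgeR called 38 genes in all (19 higher, 19 lower), against 33 without it. Over all genes DESeq2 called 234, limma-voom 43, edgeR without a filter 49 higher and 42 lower, and edgeR with 1 library left out 3 to 15 higher and 3 to 14 lower; with library totals the split was 27 higher and 16 lower, against 15 and 18 with TMM. The members' median log2 fold change ran from -0.39 to -0.22 with 1 library left out, that of the core from -0.48 to -0.21, of the ATPases from -0.37 to -0.22, of the non-ATPase base from -1.02 to -0.45 and of the lid from -0.31 to -0.13; the ratio of summed CPM, KO over WT, ran from 0.775 to 0.816, was 0.792 on all libraries and 0.854 with library totals. These medians kept their sign in every setting run. With library totals the median of the core was -0.13 and that of the lid -0.06, both nearer 0 than with any library left out. Those of all members, the ATPases and the non-ATPase base, at -0.25, -0.24 and -0.54, lay within the ranges above. With a library left out, 26 to 28 of 35 members lay below 0. The sign of Psmb6 turned in DESeq2 (0.020), with DESeq2 size factors (0.021) and with library totals (0.11). With 1 library left out, estimates that changed sign ran from -0.45 to 0.22 for Psmb6, -0.46 to 0.0024 for Psmb7, -0.075 to 0.18 for Nfe2l1, -0.11 to 0.32 for Pomp, -1.63 to 0.44 for Adrm1, -0.0017 to 0.52 for Psme1 and -0.060 to 0.48 for Psme3. Over the alternatives in edgeR, DESeq2 and limma-voom, adjusted p ran from 0.0103 to 0.862 for Psma6, 0.00348 to 0.727 for Psmd2, 0.0113 to 0.771 for Rad23b and 0.0302 to 0.910 for Vcp, the highest each time with 1 WT library left out. The median log2 fold change of all genes was -0.13 in limma-voom. The share of member promoters with the antioxidant element was 0 for TGACTCAGC. The cause of these shifts was not tested.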
